A study of Mus musculus with 18 samples.

Results

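Livers of 3 mice given alginate oligosaccharide (AOS) were set against livers of 3 control mice (Con). These were 6 of the 18 livers in the series and were chosen by their treatment labels. All 6 mice were of the outbred ICR strain and 10 weeks old. AOS, short sugar chains made from the alginate of brown algae, had a labelled dose of 10 mg/kg, and the labels of these mice name no high-fat diet. The labels of the Con mice say only that they were controls, and the study's methods describe its controls at this age as males on a regular diet that were given saline. Those methods describe AOS gavage of young donor mice but no AOS group at 10 weeks on a regular diet, so the diet, route, start and length of dosing of these 3 mice are not given in the sources used here. Below, the regular diet of the AOS mice means only that their labels name no high-fat diet. The other 12 livers were of mice on a high-fat diet, 3 without further treatment (HFD), 3 with AOS at the same labelled dose (HFD+AOS), and 3 each that had received gut microbiota from AOS-dosed (A10-FMT) or control (Con-FMT) donors. They served to estimate the spread between livers, and the HFD and HFD+AOS livers to set the AOS effects on both diets side by side.

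The liver takes up fat, stores glycogen and sends out most plasma proteins. On an inflammatory signal, hepatocytes raise a set of secreted acute phase proteins, among them the serum amyloid A proteins (Saa genes) and orosomucoid (Orm genes). Many genes of lipid and bile acid handling in liver also follow feeding and the daily clock, whose repressors Nr1d1 and Nr1d2 (REV-ERB alpha and beta) oscillate strongly.

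Expression was given as RPKM, the reads of a gene scaled to its length and to the reads of the library. A gene was tested where 3 or more livers had an RPKM of 1 or more, 10507 of the 17109 with any value above 0. In the 6 livers the RPKM summed to between 717904 and 806937, and between 14720 and 14831 genes were above 0. The number of reads behind these values is unknown. The smallest steps of 625 sparsely read genes had mean ratios from 0.990 to 1.02 between libraries, and the precision of low values cannot be given. Hepatocyte markers were high in all 6 livers, with Alb, which encodes albumin, between 24367 and 37253 RPKM. A whole liver holds several cell types, and fewer cells of a type and less RNA per cell cannot be told apart. Nothing in the labels ties a liver to a litter, a cage or a collection time, so the p values measure only the spread between these livers.

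The third Con liver and the third AOS liver stood apart from the others in how close each lay to a mixture of its 2 group mates. Among the 148 genes that differed at least 2-fold between Con replicates 1 and 2 on the RPKM + 1 scale, Con replicate 3 lay between them for 98.0%. The best mixture, with weights of 0.54 and 0.46, was off by a median of 0.0665 on the log2 scale. AOS replicate 3 lay between AOS replicates 1 and 2 for 96.5% of 142 genes, and the best mixture, with weights of 0.35 and 0.65, was off by 0.0830. When each of the 12 livers on a high-fat diet was set against its 2 group mates, it lay between them for 58.1% to 76.8% of genes. The median distance there was between 0.341 and 0.590. The first 2 livers of Con and of AOS had shares of 8.33% to 36.4%, which follow in part from the third lying between them. The beta-globin gene Hbb-bs, chosen after its values were seen, had an RPKM of 0.85, 220.2 and 91.85 in Con replicates 1, 2 and 3. The same gene had 0.90, 132.96 and 84.58 in AOS replicates 1, 2 and 3. In both groups 1 of the first 2 livers was close to 0, and the third lay far from it and below the other. The third libraries were not plain averages of the deposited values. Of the genes at 0 in both group mates, 8.83% of 3690 were above 0 in Con replicate 3 and 7.71% of 3658 in AOS replicate 3, close to the 7.77% to 12.8% of the other livers. What made these 2 libraries lie between the others was not tested. Results below are from all 3 livers a group unless said otherwise. Their standard errors and p values treat each liver as an independent animal, which was not tested for the replicate 3 livers. If those 2 livers were not independent of their group mates, these standard errors and p values would tend to be too small. Where a single Con replicate is named as the control, AOS replicates 1 and 2 were set against that liver alone, and that lone liver is assumed to vary like the other groups.

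**Figure D1:**
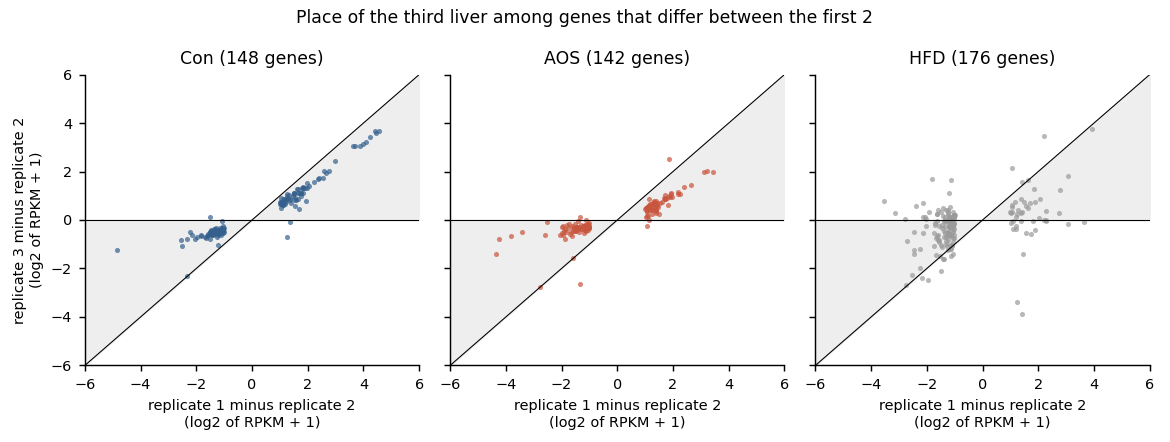
Replicate 1 minus replicate 2 on the horizontal axis and replicate 3 minus replicate 2 on the vertical axis, both in log2 of RPKM + 1, for genes that differ at least 2-fold between replicates 1 and 2. The third Con and AOS livers fall in the grey wedge between the other livers for 98.0% and 96.5% of genes, while the HFD points scatter widely, with 61.4% of 176 genes inside.

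With all livers in the fit, 14 of the 10507 genes (0.133%) differed between AOS and Con at an adjusted p under 0.05 (limma on log2(RPKM + 1), Benjamini-Hochberg adjustment). Of these, 10 (0.0952%) were higher in AOS, among them the lipase inhibitor Angptl4, the sterol transporters Abcg5 and Abcg8, the hepcidin paralog Hamp2 and the clock repressor Nr1d2. The other 4 (0.0381%) were lower, namely the acute phase genes Saa2 and Saa3, the steroid 21-hydroxylase Cyp21a1 and the tubulin Tubb6. At the study's cut-offs, an adjusted p up to 0.001 with a log2 change of 1 or more either way, limma called 0 genes. At an unadjusted p under 0.05 there were 1633 genes (15.5%), 1351 higher (12.9%) and 282 lower (2.68%), and the median log2 fold change over all genes tested was 0.07. With the medians of the libraries set equal, the genes at an unadjusted p under 0.05 divided into 741 higher and 685 lower, and 8 genes (0.0761%) were called, 4 in each direction. All 3 AOS livers lay above all 3 Con livers for 19.5% of the genes tested and below them for 5.27%.

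None of the 14 calls held without both replicate 3 livers. That fit called 0 genes by limma, with 920 at an unadjusted p under 0.05 (8.76%), and the adjusted p of the 14 genes lay between 0.448 and 0.523. It also called 0 genes when only Con replicate 1, only Con replicate 3 or only AOS replicate 3 was left out, with 955, 1247 and 1202 genes at an unadjusted p under 0.05. Leaving out Con replicate 2 instead gave 132 calls, and leaving out AOS replicate 1 gave 5. The 14 genes kept their direction in all 17 alternative fits. The 8 markers of red blood cells summed to 1582 to 3124 RPKM in Con and 3104 to 4018 in AOS, most of it from the globin genes Hba-a1 and Hbb-b1. Of the 7 tested, 3 were higher and 4 lower in AOS with a median of -0.11, and Alas2, of heme synthesis in red cells, was wholly lower, at 113.9 to 121.1 in Con and 90.3 to 97.0 in AOS. The part of these markers in the calls was not tested.

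**Figure D2:**
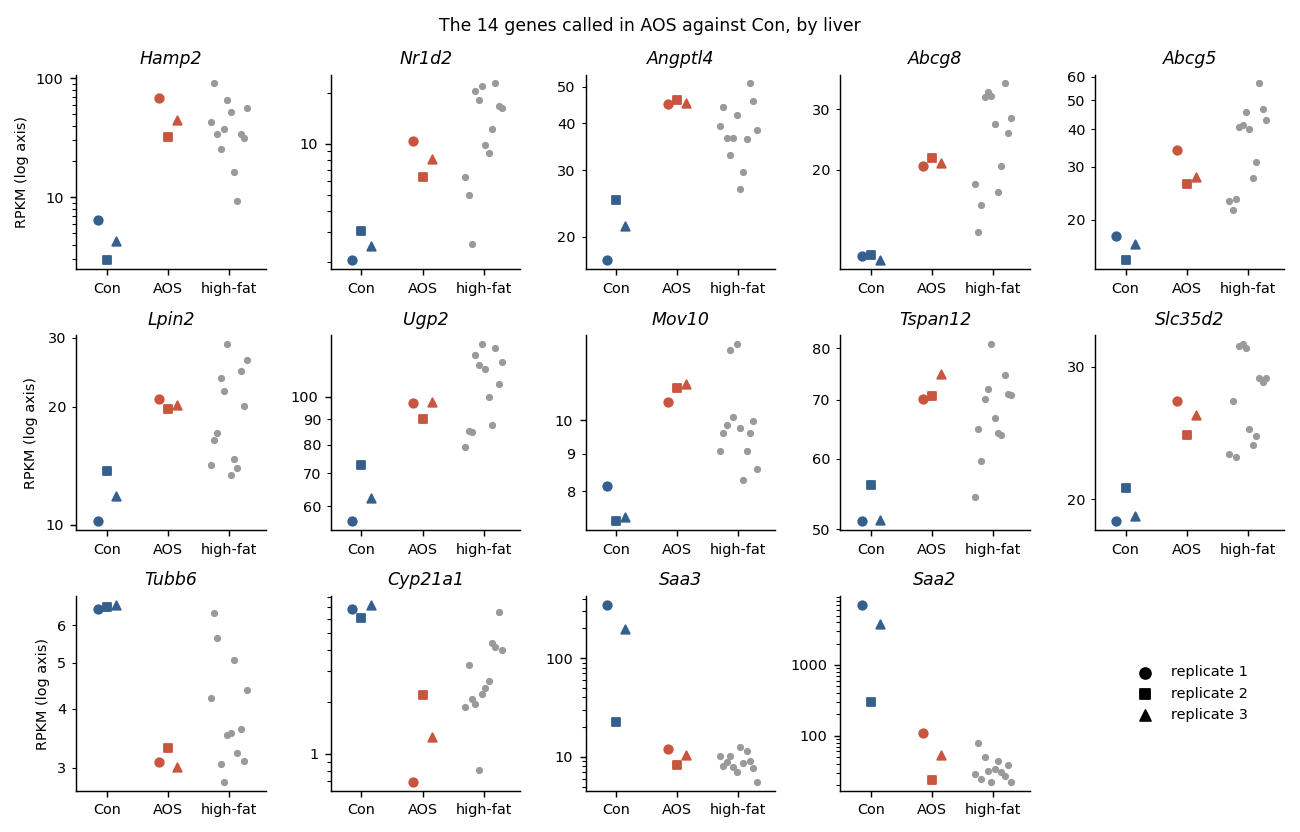
RPKM on log axes of the 14 genes called in AOS against Con, with a marker for each Con and AOS replicate and a grey point for each of the 12 livers of mice on a high-fat diet. The 3 Con livers lie outside the range of all 15 other livers for 10 of the 14 genes, and the AOS livers lie inside the range of the high-fat livers for 12.

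For most of these genes the Con livers were the ones that stood apart. The 3 Con livers lay outside the range of all 15 other livers for 10 of the 14 genes, and for 313 of all genes tested (2.98%). The AOS livers lay inside the range of the 12 livers on a high-fat diet for 12 of the 14, all but Cyp21a1 and Saa2. Over all genes tested, the 3 AOS livers lay outside the range of the 15 others for 112 (1.07%). The 14 genes were chosen by the difference between Con and AOS, so their share is a description.

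Angptl4 encodes a secreted inhibitor of lipoprotein lipase that liver makes in fasting and under PPAR alpha (chr17:33773750-33781830, minus strand, GRCm38). Its RPKM was 17.3, 25.0 and 21.3 in Con replicates 1, 2 and 3 and 45.1, 46.1 and 45.3 in the AOS livers. The AOS livers were nearly equal and all above Con, a 2.15-fold difference of the means and a log2 fold change of 1.08 ± 0.14 (SE, n = 3 a group, limma adjusted p = 0.0103). Against Con replicate 2 alone the log2 difference was 0.84, against Con replicate 1 alone 1.35. Lpin2, a phosphatidate phosphatase of triglyceride synthesis (chr17:71182560-71249817), had 10.2, 13.7 and 11.85 RPKM in Con and 20.9, 19.8 and 20.3 in AOS, without overlap (log2 fold change 0.73 ± 0.12). Ugp2, which makes UDP-glucose for glycogen (chr11:21321138-21371201), had 56.1, 72.7 and 62.4 in Con and 97.3, 90.1 and 97.5 in AOS (0.58 ± 0.10). The Con livers were again below every AOS liver, with Con replicate 2 the nearest. The adjusted p was 0.0221 for Lpin2 and 0.0397 for Ugp2 (limma).

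Hamp2 is a close copy of Hamp, the gene of the iron hormone hepcidin, and lies beside it on chromosome 7 (Hamp2 at chr7:30922372-30924681, minus strand). Its RPKM was 6.50, 2.96 and 4.32 in Con and 67.9, 31.8 and 44.7 in AOS. Every AOS liver was several times above every Con liver, 10.5-fold by the means (log2 fold change 3.12 ± 0.52, n = 3 a group, limma adjusted p = 0.0221). Without both replicate 3 livers the log2 fold change was 3.12 with an adjusted p of 0.460. The Con livers were below all 15 others for this gene, whose 12 high-fat livers ran from 9.22 to 90.5 with a median of 35.8. Hamp itself, chosen after its values were seen, had 2210, 4496 and 3113 RPKM in Con and 4564, 1927 and 2566 in AOS. The Hamp groups overlapped, with a log2 fold change of -0.15 ± 0.43. The alignment options named by the study report all hits of a read, so reads of the copies may have been counted for both.

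The stretches before both start sites show how alike the copies are (RefSeq, GRCm38.p6, 250 to 4 bases before each start, 5′ to 3′ on the gene's strand). They are identical at 224 of 250 aligned columns (89.6%). Capitals mark GGCGCC, the core of the BMP response element known from hepcidin promoters, and TTCNNNGAA, the STAT motif, both searched on both strands.
Hamp (chr7:30944033-30944279, minus strand): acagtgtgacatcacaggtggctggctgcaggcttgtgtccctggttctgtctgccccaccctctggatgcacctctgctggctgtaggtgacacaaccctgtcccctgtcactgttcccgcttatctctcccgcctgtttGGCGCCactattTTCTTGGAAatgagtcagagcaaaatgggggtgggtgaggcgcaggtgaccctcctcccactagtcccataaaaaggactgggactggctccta
Hamp2 (chr7:30924185-30924431, minus strand): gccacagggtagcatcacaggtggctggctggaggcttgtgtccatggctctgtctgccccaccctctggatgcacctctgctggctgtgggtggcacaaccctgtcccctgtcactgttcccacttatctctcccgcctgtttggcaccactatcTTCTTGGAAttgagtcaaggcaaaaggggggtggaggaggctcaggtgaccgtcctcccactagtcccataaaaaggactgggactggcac
The STAT letters begin 97 bases before the start of Hamp and 94 before that of Hamp2. GGCGCC begins 109 bases before the start of Hamp and is not in the Hamp2 window. Over 32851 promoters, GGCGCC was in 9.43% and the STAT letters in 6.94% of windows of this length. A match is only a description of the letters.

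Abcg5 and Abcg8 encode the partner proteins of the transporter that moves cholesterol and plant sterols from hepatocytes into bile, a known target of LXR. Abcg5 (chr17:84658234-84683011, minus strand) had 17.7, 14.7 and 16.6 RPKM in Con and 34.1, 26.4 and 27.8 in AOS, a log2 fold change of 0.81 ± 0.13. Abcg8 (chr17:84676302-84700333, plus strand) had 11.2, 11.3 and 10.9 in Con and 20.4, 21.6 and 20.8 in AOS, a log2 fold change of 0.86 ± 0.14. For both genes every AOS liver was above every Con liver, and the adjusted p was 0.0221 (limma). Against Con replicate 2 alone the log2 differences were 0.99 and 0.84, against Con replicate 1 alone 0.73 and 0.85, so the size of neither rested on 1 Con liver. The log2 differences of HFD+AOS against HFD were 0.88 ± 0.13 and 1.04 ± 0.14, with adjusted p of 0.00111 and 0.000426 (limma).

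The genes lie on opposite strands, and by the places given above they overlap. Abcg8 has 2 RefSeq start windows, and the later start was taken. From there the genes point away from each other, and the stretch between this start and that of Abcg5 is short enough to print whole (RefSeq, GRCm38.p6, plus strand). Capitals mark TTATCT, the GATA letters AGATAA read on the other strand, searched because GATA factors are known to act on this pair.
Abcg5-Abcg8 (chr17:84683012-84683120): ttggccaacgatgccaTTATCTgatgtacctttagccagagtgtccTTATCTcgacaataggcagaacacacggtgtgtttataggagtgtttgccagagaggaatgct
The stretch holds 2 matches, which begin 93 and 63 bases before the Abcg8 start. Of windows of this length before 32851 promoters, 3.98% hold the GATA letters.

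Tspan12, Mov10 and Slc35d2, also called higher in AOS, had smaller log2 fold changes than the called genes above. Tspan12, a tetraspanin of Norrin signalling, had 51.05 to 56.1 RPKM in Con and 70.0 to 74.8 in AOS (log2 fold change 0.44 ± 0.08). Mov10, an RNA helicase that restricts retroelements, had 7.28 to 8.13 in Con and 10.6 to 11.2 in AOS (0.48 ± 0.09). Slc35d2, a nucleotide sugar transporter of the Golgi, had 18.7 to 20.7 in Con and 24.4 to 27.0 in AOS (0.39 ± 0.07). None of these groups overlapped, and the adjusted p lay between 0.0394 and 0.0397 (limma).

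Of the REV-ERB genes, Nr1d2 was called higher in AOS and Nr1d1 was higher in its values without a call, while Arntl, which they repress, overlapped between the groups. Nr1d2 (chr14:18204054-18239127) had 2.05, 3.03 and 2.49 RPKM in Con and 10.4, 6.39 and 8.16 in AOS. Its groups lay apart, 3.30-fold by the means (log2 fold change 1.39 ± 0.22, limma adjusted p = 0.0221). Nr1d1 (chr11:98767932-98775333), the other REV-ERB gene, had 1.22, 3.68 and 2.72 in Con and 30.7, 10.0 and 16.9 in AOS. AOS replicate 1 was far above the others, and the log2 fold change of 2.45 ± 0.62 missed the threshold (adjusted p = 0.105). Rgs16, a regulator of G protein signalling with a feeding rhythm in liver, had 0.52, 1.91 and 1.59 in Con and 27.8, 2.11 and 11.6 in AOS, where the lowest AOS liver was barely above the highest Con liver (log2 fold change 2.21 ± 0.64, adjusted p = 0.144). Arntl (BMAL1), the activator that REV-ERB proteins repress, had 10.1, 12.9 and 12.15 in Con and 11.2, 12.7 and 11.8 in AOS. These values overlapped fully, with a log2 difference of 0.02 ± 0.22 that turned to -0.046 with the medians of the libraries set equal. Of the 13 listed clock repressors and outputs, 10 were higher (67.8% of all genes) and 3 lower, with a median of 0.14. In that list 1 was called higher (0.0952% of all genes) and 0 lower (0.0381%). The direction of this list turned with the Con liver taken. Against Con replicate 2 alone 5 were higher and 8 lower with a median of -0.07. Against Con replicate 1 alone 11 were higher and 2 lower with a median of 0.53. Of the 6 genes of the Bmal1 phase, 4 were higher and 2 lower, with a median of 0.02 and 0 called.

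Saa2 had the largest fold change of the 14. This acute phase apolipoprotein (chr7:46751790-46754313, plus strand) had 7018, 300.04 and 3826 RPKM in Con replicates 1, 2 and 3 and 110.2, 23.7 and 53.95 in AOS. All Con livers were above all AOS livers, but they ranged over more than an order of magnitude among themselves. The log2 fold change was -5.24 ± 0.84 (n = 3 a group, limma adjusted p = 0.0221), -7.07 against Con replicate 1 alone and -2.52 against Con replicate 2 alone. The 12 high-fat livers had between 22.2 and 77.97, below every Con liver. Saa3 (chr7:46711998-46715700) had 344.2, 22.6 and 195.3 in Con and 12.1, 8.19 and 10.5 in AOS. Con replicate 1 was again the highest and Con replicate 2 the lowest of the group, and the log2 fold change of -3.39 ± 0.62 (adjusted p = 0.0397) became -1.10 against Con replicate 2 alone.

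Saa1 and Orm2 had the same order of livers without a call. Saa1 (chr7:46740497-46742980, minus strand) had 6422, 296.1 and 3570 RPKM in Con and 278.4, 61.1 and 131.0 in AOS (log2 fold change -3.85 ± 0.84, limma adjusted p = 0.0710). Con replicate 2 was only slightly above AOS replicate 1. Orm2 had 762.4, 39.8 and 441.1 in Con and 33.1, 11.6 and 19.6 in AOS (-3.53 ± 0.80, adjusted p = 0.0815), with the same narrow gap. Saa1 and Saa2 are near copies of each other, and reads may have been counted for both.

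The stretches before the Saa1 and Saa2 starts are also close copies (RefSeq, GRCm38.p6, 250 to 44 bases before each start, on the gene's strand), with 195 of 208 aligned columns identical (93.8%). Capitals mark TTGCNCAA, the letters searched for C/EBP, a factor family of the acute phase response.
Saa1 (chr7:46743024-46743230, minus strand): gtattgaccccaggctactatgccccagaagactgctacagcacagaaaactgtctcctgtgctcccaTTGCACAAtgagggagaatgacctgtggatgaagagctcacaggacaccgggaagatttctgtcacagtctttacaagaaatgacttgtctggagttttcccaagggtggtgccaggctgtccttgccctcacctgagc
Saa2 (chr7:46751583-46751789, plus strand): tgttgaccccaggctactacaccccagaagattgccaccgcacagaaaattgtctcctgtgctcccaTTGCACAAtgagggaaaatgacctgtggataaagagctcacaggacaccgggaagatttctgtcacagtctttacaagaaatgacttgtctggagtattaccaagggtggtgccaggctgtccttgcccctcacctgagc
The match begins 182 bases before the start of Saa1 and 183 before that of Saa2, and 2.35% of windows of this length before 32851 promoters hold these letters.

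Over the 23 acute phase genes tested, all 23 had a lower mean in AOS, with a median log2 fold change of -0.74. Of these, 2 were called lower (0.0381% of all genes tested), 13 were lower at an unadjusted p under 0.05 (2.68% of all genes), and 6 had no overlap between groups (5.27%). Con replicate 1 was the highest of all 18 livers for 20 of the 23, and Con replicate 3 lay between its group mates for 23 of 23. The median log2(RPKM + 1) of the list was 9.84, 8.23 and 9.26 in Con replicates 1, 2 and 3 and 8.24, 8.11 and 8.21 in AOS, and between 7.44 and 8.55 in the 12 high-fat livers. Con replicate 2 was thus at the level of the AOS livers over the list, and above all AOS livers for 6 genes and below them for 6. Against Con replicate 2 alone the median log2 difference was 0.10, with 13 genes higher and 10 lower in AOS, and against Con replicate 1 alone it was -1.36. The direction of the list therefore turned with the Con liver taken as control. Markers of neutrophils were low throughout, with a summed RPKM of the 8 markers of 3.54 to 10.9 in Con and 3.22 to 4.62 in AOS and the defining marker Ly6g at most at 0.16. Their part in the acute phase values was not tested.

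**Figure D3:**
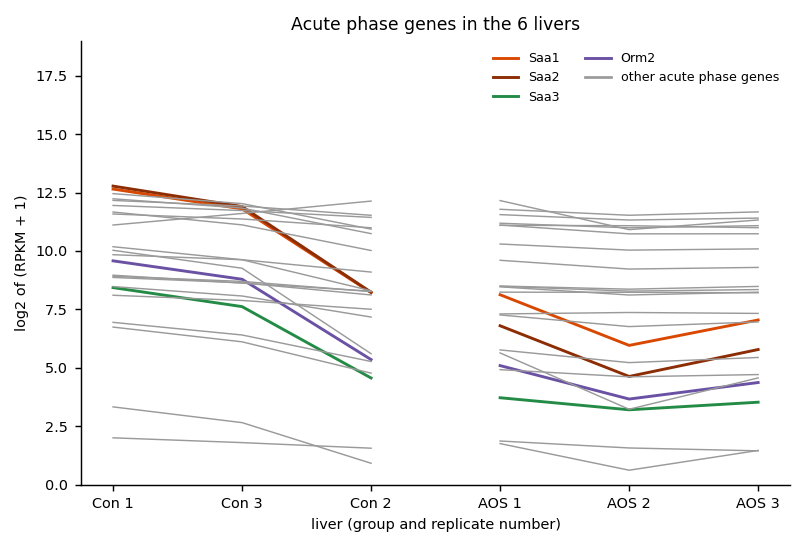
Log2 of RPKM + 1 of the 23 acute phase genes tested, a line for each gene, in the 6 livers, with the Con livers drawn in the order 1, 3, 2. Most lines fall from Con replicate 1 to Con replicate 2, with Con replicate 3 between them for all 23 genes, and Con replicate 2 is near the AOS livers except for genes such as Saa2 and Saa3.

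Several other genes with lower values in AOS had their highest value in Con replicate 1, and none was called (limma adjusted p from 0.113 to 0.171). Nnmt, which methylates nicotinamide, had 42.5, 1.76 and 22.9 RPKM in Con and 1.44, 0.49 and 0.77 in AOS, with Con replicate 2 close to AOS. The metallothionein Mt1, which zinc, glucocorticoids and inflammation raise, had 736.2, 58.2 and 493.2 in Con and 70.2, 32.5 and 36.1 in AOS, and the groups overlapped. Moxd1, a monooxygenase, had 7.11, 0.75 and 4.21 in Con and was at 0.02, 0.06 and 0 in AOS. Scara5, a ferritin receptor, and Ifi27l2b, an interferon-inducible gene, had the same order of Con livers, with log2 fold changes of -1.36 ± 0.38 and -1.69 ± 0.55. The log2 differences against Con replicate 2 alone were smaller, -0.53 for Nnmt, -0.75 for Moxd1, -0.60 for Scara5 and -1.02 for Ifi27l2b.

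Cyp21a1 and Tubb6, the remaining genes called lower, did not follow the acute phase order, nor did the uncalled Hspb1 and Cyp3a13. Cyp21a1 encodes steroid 21-hydroxylase, an enzyme best known from the adrenal cortex (chr17:34801348-34804561). It had 6.86, 6.06 and 7.22 RPKM in Con and 0.69, 2.2 and 1.25 in AOS. The Con livers were close together and above all AOS livers, 4.86-fold by the means (log2 fold change -1.74 ± 0.26, limma adjusted p = 0.0221), and the differences against Con replicates 1 and 2 alone were -1.76 and -1.60. Tubb6, a beta-tubulin, had 6.51, 6.56 and 6.62 in Con and 3.08, 3.31 and 3.01 in AOS, with little spread in either group (-0.87 ± 0.14, adjusted p = 0.0221). Both stayed apart whichever Con liver was taken. Hspb1, a small heat shock protein, had 66.6, 65.7 and 70.2 in Con and 22.2, 44.7 and 30.4 in AOS, without overlap and without a call (-1.09 ± 0.32, adjusted p = 0.152). Cyp3a13, a drug-metabolising P450, had 27.0, 23.35 and 27.3 in Con and 12.1, 8.95 and 10.4 in AOS (-1.23 ± 0.27, adjusted p = 0.0754).

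Genes with male-biased expression in liver, which follow pulsatile growth hormone, had lower means in AOS for 14 of 19 tested. The other 5 were higher, and the median log2 fold change over the 19 was -0.28. None was called, 7 were lower at an unadjusted p under 0.05 (2.68% of all genes) and 1 was higher. Mup20, a major urinary protein, had 6428, 2436 and 3988 RPKM in Con and 968.2, 1313 and 1286 in AOS, without overlap (-1.75 ± 0.38, limma adjusted p = 0.0710). Its relative Mup8 had 632.3, 404.7 and 408.0 in Con and 103.4, 129.0 and 134.0 in AOS (-1.95 ± 0.75, adjusted p = 0.231). Both had the acute phase order, with Con replicate 1 the highest and Con replicate 2 the lowest of the Con livers. For Mup20 the log2 difference was -2.51 against Con replicate 1 alone and -1.11 against Con replicate 2 alone. Reads of Mup genes are shared widely among near-identical copies. Elovl3, a fatty acid elongase, had 209.0, 228.2 and 239.45 in Con and 72.35, 150.8 and 119.25 in AOS (-1.04 ± 0.29, adjusted p = 0.144), and the complement gene C6 had -0.88 ± 0.27. C6 also had its highest Con value in replicate 1 and its lowest in replicate 2, at 120.5 and 92.7 RPKM. Against Con replicate 2 alone the list median was -0.41 and against Con replicate 1 alone -0.17. Only 9 of the 21 female-biased genes passed the filter, and their median was 0.46 with 0 called. Of these, Cyp2a4 had 31.1, 1.99 and 10.8 RPKM in AOS replicates 1, 2 and 3 and Cyp2b9 had 30.3, 3.96 and 12.4. Both overlapped with Con and were highest in AOS replicate 1, whereas Abcd2 was lowest there among the AOS livers. AOS replicate 1 was also the lowest AOS liver for Mup20, Mup8, Elovl3 and C6.

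Genes of fatty acid oxidation and ketogenesis, which PPAR alpha drives in fasting, had higher means in AOS throughout the list. All 31 tested were higher, against 67.8% of all genes, with a median log2 fold change of 0.32 beside 0.07 over all genes. Only Angptl4 was called, beside 0.0952% of all genes called higher. At an unadjusted p under 0.05, 19 were higher (12.9% of all genes), and 18 had no overlap (19.5%). Hadhb, a subunit of the mitochondrial trifunctional protein, had 58.7, 75.5 and 65.7 RPKM in Con and 79.6, 87.5 and 85.2 in AOS (0.34 ± 0.08, limma adjusted p = 0.105). Ehhadh, a peroxisomal enzyme of fatty acid oxidation, had 45.1, 71.6 and 61.6 in Con and 99.3, 87.6 and 89.7 in AOS (0.65 ± 0.17, adjusted p = 0.118). Con replicate 1 was lowest and Con replicate 2 nearest to AOS for both. Against Con replicate 2 alone 28 of the 31 were higher with a median of 0.15, and against Con replicate 1 alone all 31 with a median of 0.54.

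The other lists of lipid metabolism differed in direction and size. Of all genes, 67.8% were higher and 0.0952% were called higher. Of 18 genes of fatty acid synthesis, 16 were higher with a median of 0.37, 3 of them at an unadjusted p under 0.05 (12.9% of all genes) and 0 called, and the median was 0.09 against Con replicate 2 alone. Pnpla3, a lipid droplet hydrolase, had 0.56, 1.77 and 1.15 RPKM in Con and 4.33, 1.74 and 2.55 in AOS, with overlap. Pklr, liver pyruvate kinase, and Me1, malic enzyme, had log2 fold changes of 0.60 ± 0.26 and 0.67 ± 0.30. AOS replicate 1 was the highest for all 3. Of 25 genes of cholesterol synthesis, 9 were higher and 16 lower with a median of -0.06 and 0 called. Msmo1, an enzyme of that path, had -0.35 ± 0.28. Of 26 genes of triglycerides, lipid droplets and lipoproteins, 18 were higher, near the share of all genes, with a median of 0.18, and Lpin2 was called. Lipc, hepatic lipase, had 60.2, 88.9 and 75.2 in Con and 111.1, 100.9 and 103.1 in AOS (0.50 ± 0.11, limma adjusted p = 0.0815). Fabp2, a fatty acid binding protein, had 0.48 ± 0.17 without overlap.

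Of 26 genes of bile acid synthesis and transport, 21 were higher in AOS (67.8% of all genes) with a median of 0.21. Called higher were 2 (0.0952% of all genes), the sterol transporters Abcg5 and Abcg8. At an unadjusted p under 0.05 there were 10 higher and 1 lower, beside 12.9% and 2.68% of all genes, and 14 lay wholly above and 3 wholly below Con, beside 19.5% and 5.27% of all genes. Abcc2, the canalicular export pump for conjugates, had 20.0, 28.8 and 24.04 RPKM in Con and 35.9, 33.7 and 34.3 in AOS, without overlap (0.51 ± 0.11, limma adjusted p = 0.0710). Nr1h4, the bile acid receptor FXR, had 54.4, 65.5 and 58.6 in Con and 56.7, 56.9 and 56.25 in AOS, inside the range of Con. Its log2 difference was -0.07 ± 0.10 (adjusted p = 0.805). The median of the bile acid list was 0.19 against Con replicate 2 alone and 0.36 against Con replicate 1 alone.

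The liver stores vitamin A and sends it out as retinol. Of 31 genes of retinoid handling, 22 were higher and 9 lower, beside 67.8% higher of all genes, with a median of 0.11 and 0 called. At an unadjusted p under 0.05 there were 7 higher and 1 lower, beside 12.9% and 2.68% of all genes. Rdh16f2, a retinol dehydrogenase of the short-chain family, had 31.65, 29.2 and 26.95 RPKM in Con and 65.3, 56.1 and 57.3 in AOS, without overlap (1.00 ± 0.24, limma adjusted p = 0.0886). Dhrs4 and Rdh7, further oxidoreductases of retinoids, had 0.28 ± 0.09 and 0.28 ± 0.09 without overlap. Rbp4, the plasma carrier of retinol, had 2192, 2782 and 2542 in Con and 2924, 2694 and 2668 in AOS, with overlap (0.15 ± 0.11, adjusted p = 0.538). Dhrs9 was too low to be tested, at most 0.16 in any of the 6 livers.

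Of 21 genes of glucose and glycogen, 17 were higher with a median of 0.18, and Ugp2 was called. Over all genes, 67.8% were higher and 0.0952% were called higher. Pck1, the gate of gluconeogenesis, had 287.2, 342.5 and 302.4 RPKM in Con and 539.9, 553.1 and 552.1 in AOS. The AOS livers were nearly equal and well above Con (0.82 ± 0.23, limma adjusted p = 0.144). Slc2a2, the glucose transporter GLUT2, had 41.0, 71.8 and 53.8 in Con and 117.0, 67.0 and 82.7 in AOS, with overlap. Of 32 genes of amino acid breakdown and the urea cycle, 27 were higher with a median of 0.17 and 0 called. The 5 higher and 1 lower at an unadjusted p under 0.05 were near the 12.9% and 2.68% of all genes. Tdo2 and Hal, which open the breakdown of tryptophan and histidine, had 0.55 ± 0.16 and 0.44 ± 0.14, both without overlap and uncalled. The 16 periportal genes had a median of 0.32 with 14 higher, among them Etnppl, a phospholyase, at 0.95 ± 0.33, and the 17 pericentral genes a median of -0.01 with 7 higher. Neither zone list had a called gene.

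Interferon-responsive genes had a higher list median in AOS against either Con liver, with a wide spread among the AOS livers. Of 34 tested, 32 were higher with a median of 0.36, 14 at an unadjusted p under 0.05 (12.9% of all genes) and 0 called, and 9 had no overlap (19.5%). Without both replicate 3 livers 32 were again higher, with a median of 0.34. Only 2 of them were then at an unadjusted p under 0.05 (limma), beside 8.76% of all genes in either direction. The median was 0.43 against Con replicate 2 alone, with 31 higher and 3 lower. Against Con replicate 1 alone it was 0.35, with 29 higher and 5 lower. The list median depended more on the AOS livers, with 0.55 without AOS replicate 1 and 0.23 without AOS replicate 2. All listed genes that differed at least 2-fold between AOS replicates 1 and 2 were lower in replicate 1. Their log2 differences ran from -2.59 for Ifi27l2a to -1.07 for Oas1a, both chosen after their values were seen. Ddx58 (RIG-I), a sensor of viral RNA, had 5.24, 5.39 and 5.15 RPKM in Con and 6.21, 7.94 and 7.13 in AOS (0.37 ± 0.11, limma adjusted p = 0.146). The chemokine gene Cxcl9 had 2.11, 2.08 and 1.99 in Con and 4.30, 3.19 and 3.60 in AOS (0.61 ± 0.19), and the guanylate-binding protein gene Gbp6 had 5.07, 6.30 and 5.52 in Con and 6.37, 14.8 and 12.8 in AOS (0.82 ± 0.26). The Con livers were close together for all 3 genes, and AOS replicate 1 came near Con for Gbp6. The 12 markers of lymphocytes and MHC class II summed to 56.6 to 61.3 RPKM in Con and 62.9 to 126.2 in AOS, and the T cell markers Cd3d, Cd3e and Cd8a were at most 0.58 in any of the 6 livers. Their part in the interferon values was not tested.

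**Figure D4:**
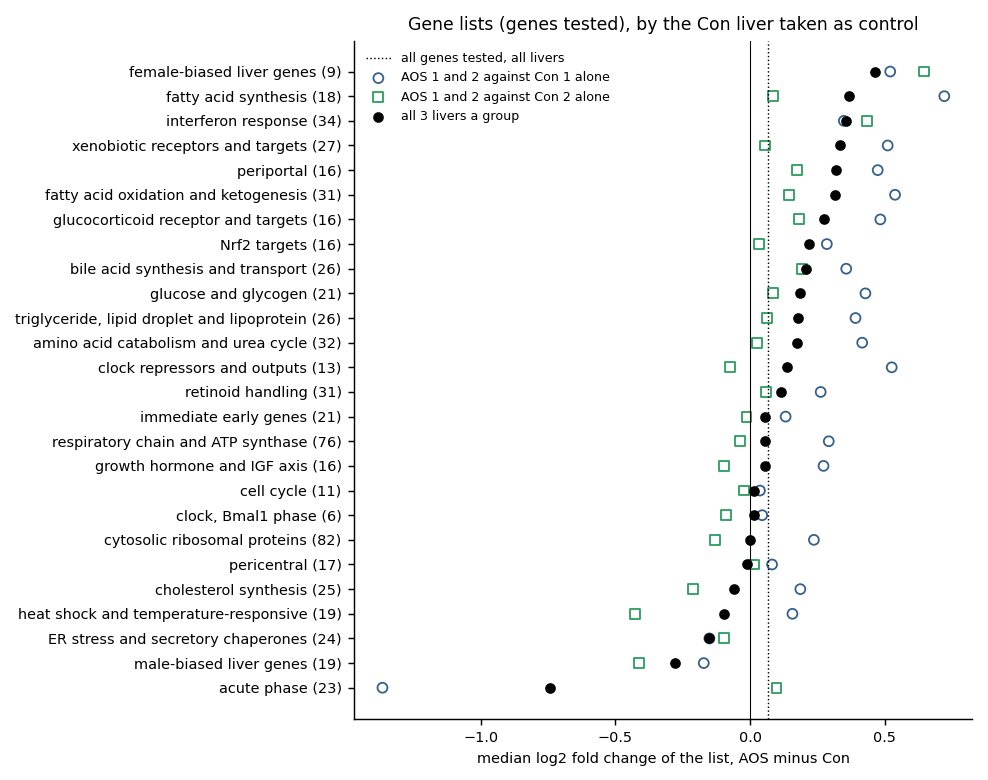
Median log2 fold change of each gene list (genes tested in brackets), AOS minus Con, with all 3 livers a group (black), and AOS replicates 1 and 2 against Con replicate 1 alone (circles) or Con replicate 2 alone (squares). The dotted line is the median of all genes, 0.07. The acute phase list runs from -1.36 to 0.10 with the Con liver taken, while the interferon and bile acid lists lie at 0.35 to 0.43 and 0.19 to 0.36. Changes of the AOS liver are not drawn.

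HFD+AOS against HFD compares none of the livers of AOS against Con, and limma called 919 genes there (8.75%). Both comparisons take the spread of a gene from the same fit, so their calls are not independent. Of the 14 genes called on the regular diet, 8 were called in the same direction on the high-fat diet and 0 in the opposite direction. Over all 10507 genes, the Pearson correlation of the effects was 0.245, as a description across genes that are not independent. Nr1d2 had 6.32, 4.99 and 2.55 RPKM in HFD and 20.4, 18.1 and 21.9 in HFD+AOS (log2 fold change 1.97 ± 0.22, adjusted p = 9.41e-05). Lpin2 and Ugp2 had 0.60 ± 0.12 and 0.54 ± 0.10, nearly the values on the regular diet.

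The difference between the AOS effects was called for 53 genes (0.504%), 38 of them with the more positive effect on the regular diet, and for 15 without both replicate 3 livers, all among the 53. Of the 14 genes called on the regular diet, Angptl4 and Hamp2 were among the 53. Angptl4 had 39.4, 44.2 and 36.5 RPKM in HFD and 33.1, 36.5 and 42.2 in HFD+AOS, with overlap and a log2 difference of -0.10 ± 0.14. All 3 HFD livers were above the 3 Con livers for this gene, and the difference between diets was 1.18 ± 0.20 (limma adjusted p = 0.00906, 0.0953 without both replicate 3 livers). Hamp2 had 42.6, 90.5 and 33.7 in HFD and 25.6, 37.25 and 65.55 in HFD+AOS, in the range of the AOS livers or above it but for HFD+AOS replicate 1 (difference 3.46 ± 0.73, adjusted p = 0.0468, 0.266 without both replicate 3 livers). Saa2 was low in both high-fat groups, and its difference of -5.02 ± 1.19 was not called (adjusted p = 0.0696).

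The 5 genes with the smallest p for this difference were Ciart, Chka, Arntl, Npas2 and Ttc7, which include core clock genes. Ciart, a clock repressor, had 0.07 to 0.45 RPKM in the 6 livers on the regular diet, 0.05, 0.20 and 0.20 in HFD and 7.21, 9.82 and 10.7 in HFD+AOS. Arntl had 12.1, 14.6 and 13.2 in HFD and 1.18, 1.23 and 1.32 in HFD+AOS, and its partner Npas2 2.64, 2.65 and 2.95 in HFD and 0.11, 0.06 and 0.19 in HFD+AOS. On the regular diet neither group stood apart for these 3 genes, and their log2 fold changes lay between -0.12 and 0.07. Chka, choline kinase, had log2 fold changes of -0.23 ± 0.14 on the regular diet and -2.25 ± 0.14 on the high-fat diet. Ttc7 had -0.24 ± 0.08 and 0.68 ± 0.08. The rhythmic deubiquitinase gene Usp2 had 1.31, 2.01 and 1.66 in Con and 0.82, 0.42 and 0.77 in AOS, against a log2 fold change of 1.88 ± 0.23 on the high-fat diet. The times of day at which livers were taken are not given in the sources used here, and a difference in time of collection between groups cannot be told apart from the treatment. The glucocorticoid target Zbtb16 had 1.28, 1.32 and 1.15 in Con and 3.64, 2.04 and 2.55 in AOS (0.71 ± 0.15, adjusted p = 0.0710), and was lower with AOS on the high-fat diet (-0.78 ± 0.15, adjusted p = 0.00523).

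**Figure D5:**
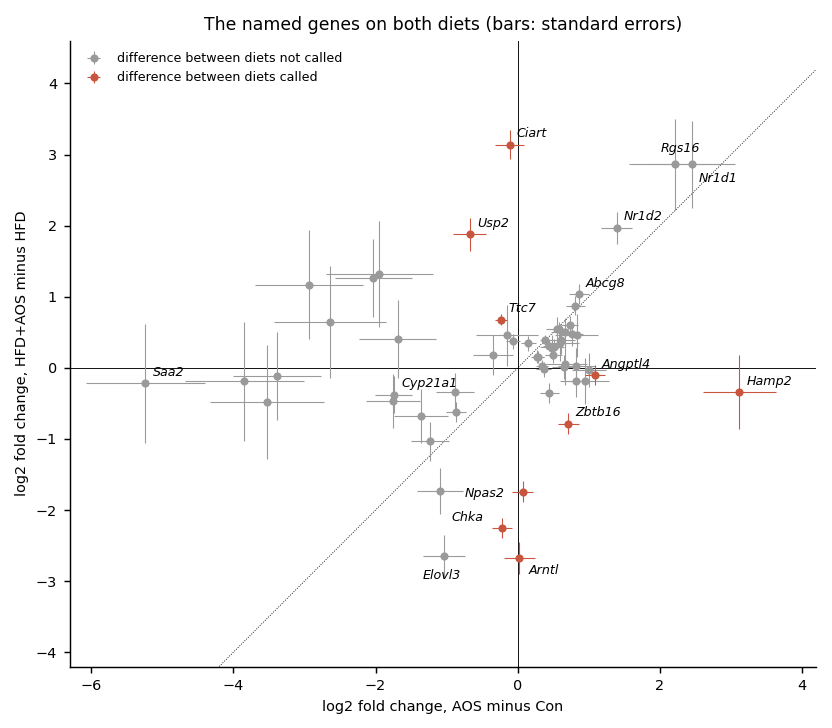
Log2 fold change of AOS minus Con on the horizontal axis and of HFD+AOS minus HFD on the vertical axis for the named genes, with standard errors as bars. Nr1d1, Nr1d2, Rgs16 and Abcg8 lie near the dotted line of equal change, Angptl4 and Hamp2 lie to the right at heights near 0, and Ciart, Chka, Arntl and Npas2 lie far from 0 only on the vertical axis.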

How the data were processed

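Liver RNA of 18 mice was sequenced, and 6 livers, 3 AOS and 3 Con, are described here. The authors deposited 1 table of RPKM values rounded to 2 decimals. The study's methods name SOAPaligner with options that report all hits of a read, whereas the submitters' processing notes list Bowtie 0.12.2 and the mm10 build. How these relate, the annotation and the strandedness are not given in the sources used here. Reads of near-identical genes (Saa, Hamp, Mup and Cyp families) and of overlapping genes may therefore be mixed. RPKM carries no read numbers, so count tests, among them the study's DEGseq, were not run, and no depth or interval could be given.

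Of all genes, those reaching an RPKM of 1 in 3 or more livers were kept. A model with 6 group means was fitted to log2(RPKM + 1) of the 18 livers (R 4.3.3, limma 3.58.1, lmFit, then eBayes with a trend, Benjamini-Hochberg adjustment over 10507 genes, threshold 0.05). Fold changes on this scale understate the change of low genes. The difference between the AOS effects on both diets was a contrast of the same fit. A mixture of 2 group mates was fitted to each liver by weights from 0 to 1 in steps of 0.01. Python 3.11.15, numpy 2.4.6, pandas 2.3.3, matplotlib 3.10.9 and biopython 1.88 were used. Places of genes are from GENCODE M21, matched by symbol for 95 of 95 genes.

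The comparison, the 26 pathway lists and the 10 marker lists were chosen with earlier results of these data known. Named genes are the called ones, up to 12 a direction, filled up with the largest changes among genes at an unadjusted p under 0.05 with and without both replicate 3 livers and without overlap, up to 3 genes a list, those of smallest p, Nr1h4, Dhrs9 and Rbp4 from the study, and the 5 genes with the smallest p for the difference between diets. Not all of these are printed. Replicate numbers come from the titles and share no stated litter or batch.

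The alternatives were equal library medians, no low-value filter, a pseudocount of 0.1, only the Con and AOS livers, the replicate number as a block, no variance trend, a fold change limit, and leaving out both replicate 3 livers or each liver in turn. Fits without both replicate 3 livers and a further Con liver, and fits of the Con and AOS livers alone with the block or without both replicate 3 livers, were added after the data were seen.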

Additional observations from a re-analysis of the deposited data

Results flagged for a closer look

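The log2 fold change with AOS differed between the diets for 53 genes by a test of the difference itself (limma, adjusted p under 0.05). Of these, 15 stayed called without both replicate 3 livers. Collection times, and the route and length of dosing of the regular-diet AOS mice, are not given. Differences in these cannot be told apart from the diet. Among the genes named above, the log2 fold change on the regular diet minus that on the high-fat diet was 1.18 for Angptl4, 3.46 for Hamp2, 1.5 for Zbtb16, 2.03 for Chka, 2.70 for Arntl and 1.81 for Npas2. It was -2.55 for Usp2, -3.26 for Ciart and -0.92 for Ttc7. Without both replicate 3 livers the adjusted p was 0.0953 for Angptl4 and 0.266 for Hamp2, and between 0.00193 and 0.0316 for the other 7. For Nnmt and Hal, every AOS liver moved one way against Con and every HFD+AOS liver the opposite way against HFD. The difference of the log2 fold changes was -4.11 for Nnmt and 0.80 for Hal, and by the limma test it was not called for either (adjusted p 0.106 and 0.0756). Groups of 3 livers were not searched for single outlying livers.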

How the results depend on the processing

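The number of genes called depended on single livers and on the fit. With each liver left out in turn, or both replicate 3 livers with a further Con liver, between 0 and 132 genes were called, 0 to 92 higher and 0 to 40 lower, and 0 to 8 at the study's cut-offs. Without both replicate 3 livers 0 were called, 0 higher and 0 lower, and likewise in the fit of the Con and AOS livers alone without both replicate 3 livers, with 551 genes at an unadjusted p under 0.05. The Con and AOS livers alone gave 41, 25 higher and 16 lower, and equal library medians gave 8, 4 higher. A fold change limit of 1 on the log2 scale left 6. The replicate number as a block gave 10 calls, 6 higher, all among the 14, and with the Con and AOS livers alone 21, 8 of them lower and 1 at the study's cut-offs. Deviations of same-numbered AOS and Con livers from their group means had correlations of -0.006, -0.003 and -0.063 across genes. Such values over all genes cannot show whether same-numbered livers shared a day, a cage or a batch. Single genes such as Hbb-bs had the same order of replicates in both groups. The pseudocount of 0.1, no filter and no trend gave 15, 14 and 14 calls. The difference between diets was called for 15 genes without both replicate 3 livers and for 2 to 86 with livers left out, and HFD+AOS against HFD for 496 and for 555 to 968 under the same changes. With livers left out, the median log2 fold change was 0.15 to 0.54 for fatty acid oxidation, 0.18 to 0.36 for bile acids, 0.23 to 0.55 for interferon and -1.36 to 0.10 for the acute phase list, which turned positive without Con replicates 1 and 3 and AOS replicate 3. Among genes never called on the regular diet, the sign turned for Arntl with equal library medians (-0.046), and with livers left out for Arntl (-0.11 to 0.22), Nr1h4 (-0.20 to 0.061), Ciart (-0.21 to 0.014), Npas2 (-0.074 to 0.13) and Hamp (-0.60 to 0.42). The cause of these changes was not tested. The number of reads is unknown, which limits genes of low RPKM, and 3 livers a group limit all.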

Other observations

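The other lists held few genes that stood out. Of 16 glucocorticoid genes, 12 were higher in AOS with a median of 0.27. Angptl4, which is also on this list, was the only called member, beside 0.0952% of all genes called higher. Of 24 genes of ER stress and secretory chaperones, 18 were lower with a median of -0.15 and 10 lay wholly below Con, beside 5.27% of all genes, with 0 called. Herpud1, which acts in the removal of misfolded proteins, went the other way with 68.8, 79.5 and 75.0 RPKM in Con and 171.4, 100.03 and 118.0 in AOS (log2 fold change 0.76 ± 0.16, limma adjusted p = 0.0710). Of 19 heat shock genes, 13 were lower with a median of -0.10 and 0 called, and the median was -0.43 against Con replicate 2 alone and 0.16 against Con replicate 1 alone. Of 27 xenobiotic genes, 23 were higher with a median of 0.33, and of 16 Nrf2 targets 11 were higher with a median of 0.22. Of all genes 67.8% were higher. The xenobiotic and Nrf2 medians were 0.06 and 0.03 against Con replicate 2 alone and 0.51 and 0.28 against Con replicate 1 alone. Neither list had a called gene.

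The 76 genes of the respiratory chain and ATP synthase had a median of 0.06, the 82 cytosolic ribosomal proteins -0.002, the 16 genes of the growth hormone axis 0.05, the 21 immediate early genes 0.06 and the 11 cell cycle genes 0.02, with 0 called in each. For the ribosomal proteins 75 of 82 were lower against Con replicate 2 alone and 81 of 82 higher against Con replicate 1 alone.

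Marker sums of other cells overlapped between the groups for macrophages, stellate cells, endothelial cells and cholangiocytes. Adipoq, Lep and Plin1, which define adipocytes, were at 0 in all 6 livers. The only tested marker of that list, the adrenergic receptor gene Adrb3, had 3.81 to 4.96 RPKM in Con and 6.92 to 7.27 in AOS, and the 6 markers summed to 4.05 to 5.12 and 6.92 to 7.74, without overlap. Of the pancreas markers all but Cela1 were below 1.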
